A study of Mus musculus with 12 samples.

Results

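The genes followed encode signals of T cells, most of them secreted. They are the chemokines Ccl3, Ccl4, Ccl5 and Xcl1, the growth factors Csf1 and Csf2, the interleukins Il2 and Il10, and the lymphotoxins Lta and Ltb. They were taken by gene name from the deposited tables, where each name occurred once, and they are 10 of 55487 genes. The libraries are messenger RNA from mouse CD4+ T cells of spleen and peripheral lymph nodes, sorted straight from the animal with no stimulation named. Naive cells, which have not yet met antigen, were gated as low in CD44 and effector cells as high in CD44, among other markers of the sort. The donors were wild-type (WT) mice or mice that lack Rinl (KO), and the stated question is what Rinl contributes to these cells. Rinl encodes an activator of the small GTPase RAB5, which directs early endosome traffic. Each of the 4 groups has 3 libraries, here called by their column numbers: 1 to 3 are WT naive, 4 to 6 WT effector, 7 to 9 KO naive and 10 to 12 KO effector. How the KO allele was made, whether cells other than T cells also lack Rinl, and the strain, age and number of mice were not found in the labels. Nothing states that replicate libraries derive from separate mice, so p-values measure the spread between these libraries, which may be technical.

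Chemokines are small secreted proteins that draw cells along a gradient. Ccl3, Ccl4 and Ccl5 draw activated T cells and macrophages, and Xcl1 acts on XCR1 of cross-presenting dendritic cells. Csf1 and Csf2 sustain and activate myeloid cells, Il2 is the growth factor of T cells, and Il10 restrains inflammation. Lymphotoxin alpha, from Lta, is secreted alone or held at the membrane by lymphotoxin beta, from Ltb, and the pair is needed to build lymphoid organs. In T cells most of these genes are switched on by receptor signals that end in NFAT, AP-1 and NF-kB, and the lineage factor T-bet, from Tbx21, adds to the chemokine genes of type 1 cells. Transcripts were measured here, not secreted protein.

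Total counts per library ran from 11606251 to 24320247. Rinl was lower in every KO library than in every WT library, at 33.0 ± 1.17 against 294 ± 7.58 CPM (read counts scaled by TMM to a common total; mean ± SD, n = 3) in naive and 47.6 ± 1.80 against 450 ± 12.8 CPM in effector cells. T cell markers (8 genes) summed to between 4811 and 5179 CPM in all 12 libraries. Cd44, a marker of the sort, averaged 18.8 CPM in WT naive and 257 CPM in WT effector cells, and 18.9 and 229 CPM in the KO groups. Lef1, a transcription factor of naive T cells, averaged 867 and 182 CPM in the WT groups and 843 and 179 CPM in the KO groups. The labels and these markers therefore gave the same grouping.

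All positions are on mouse build GRCm38, as in the deposited table. Ccl5 (chr11:83525778-83530518, minus strand), Ccl3 (chr11:83647844-83649355, minus strand) and Ccl4 (chr11:83662584-83664683, plus strand) are neighbours, with 13228 bases between Ccl3 and Ccl4 and 117325 between Ccl5 and Ccl3. Csf2 lies elsewhere on the same chromosome (chr11:54247271-54249667, minus strand). Lta (chr17:35203165-35205351, minus strand) and Ltb (chr17:35194439-35196320, plus strand) point towards each other with 6844 bases between them, and Tnf lies in that gap. Xcl1 is at chr1:164931644-164935527 (minus strand), Il10 at chr1:131019845-131024974 (plus strand), Csf1 at chr3:107741048-107760469 (minus strand) and Il2 at chr3:37120523-37125959 (minus strand). Xcl1, Csf2 and Il2 overlap a gene on the opposite strand (Gm20743, Gm12223 and Adad1), and these 3 genes had 0, 0 and 5 counts over all 12 libraries. Lta and Ltb hold the microRNA genes Mir6974 and Mir6973a on their own strand, which took 47 and 558 counts against 6550 and 126879 for Lta and Ltb. Whether the authors' counting used strand is not stated.

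RefSeq promoters (build GRCm38.p6) were at hand for 7 of the 10 genes, not for Ccl4, Ccl5 and Il10. The windows of 300 bases, from 250 before to 50 after the RefSeq start, were searched on both strands for 7 short motifs. Shown are the bases before the start for genes that differ most in behaviour: Xcl1 and Csf1, which were far higher in effector cells, Il2, which was modestly higher, and the lymphotoxin pair, which hardly differed. Each runs 5′ to 3′ on the strand of the gene, from chr1:164935523-164935772 (minus, Xcl1), chr3:107760470-107760719 (minus, Csf1), chr3:37125955-37126204 (minus, Il2), chr17:35205352-35205601 (minus, Lta) and chr17:35194257-35194438 (plus, Ltb, up to the start of the gene in the deposited table). Capitals mark every motif match.
Xcl1: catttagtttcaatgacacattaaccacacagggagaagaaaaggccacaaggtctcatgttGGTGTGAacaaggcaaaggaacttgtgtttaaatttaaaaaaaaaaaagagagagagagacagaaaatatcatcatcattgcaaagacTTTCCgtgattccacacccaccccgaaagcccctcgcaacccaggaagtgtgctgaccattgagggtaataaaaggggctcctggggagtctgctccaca
Csf1: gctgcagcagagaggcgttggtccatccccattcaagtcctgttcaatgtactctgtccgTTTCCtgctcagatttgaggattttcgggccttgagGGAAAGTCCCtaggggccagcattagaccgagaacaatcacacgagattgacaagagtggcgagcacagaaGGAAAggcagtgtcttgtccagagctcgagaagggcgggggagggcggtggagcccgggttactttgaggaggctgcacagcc
Il2: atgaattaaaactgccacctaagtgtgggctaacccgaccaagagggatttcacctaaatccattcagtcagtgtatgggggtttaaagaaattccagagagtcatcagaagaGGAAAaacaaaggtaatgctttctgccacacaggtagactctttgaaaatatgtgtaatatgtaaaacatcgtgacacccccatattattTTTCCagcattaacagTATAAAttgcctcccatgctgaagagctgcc
Lta: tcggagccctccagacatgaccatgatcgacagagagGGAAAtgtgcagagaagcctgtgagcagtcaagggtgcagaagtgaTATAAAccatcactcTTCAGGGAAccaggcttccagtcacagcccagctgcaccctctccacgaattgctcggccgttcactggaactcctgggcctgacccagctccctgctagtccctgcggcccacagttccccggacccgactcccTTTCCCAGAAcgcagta
Ltb: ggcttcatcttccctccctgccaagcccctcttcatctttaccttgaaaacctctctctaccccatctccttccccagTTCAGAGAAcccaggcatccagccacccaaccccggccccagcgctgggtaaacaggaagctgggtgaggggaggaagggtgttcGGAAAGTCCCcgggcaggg

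The core of the NFAT site, GGAAA, was present in all 7 windows, and in 61.3% of the 32851 promoter windows of the table. Its matches lay at bases -100 to -96 before the Xcl1 start, at -137 to -133 and -47 to -43 for Il2, and at 3 places for Csf1. The T-box core GGTGTGA, held by 3.98% of all windows, was matched only in Xcl1, at -188 to -182. The NF-kB motif, in 8.46% of windows, was matched in Csf1 at -154 to -145 and in Ltb at -87 to -78, both times by the same letters, GGAAAGTCCC, which also hold an NFAT core. The STAT motif TTCNNNGAA, in 8.30% of windows, was matched 2 times in Lta and 1 time in Ltb. TATAAA (13.6% of windows) was matched in Il2 at -31 to -26 and in Lta at -167 to -162. The AP-1 motif TGANTCA (7.81%) and the CRE motif TGACGTCA (1.79%) had no match in these 7 windows. A match is a description of the letters and not a bound site.

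**Figure D1:**
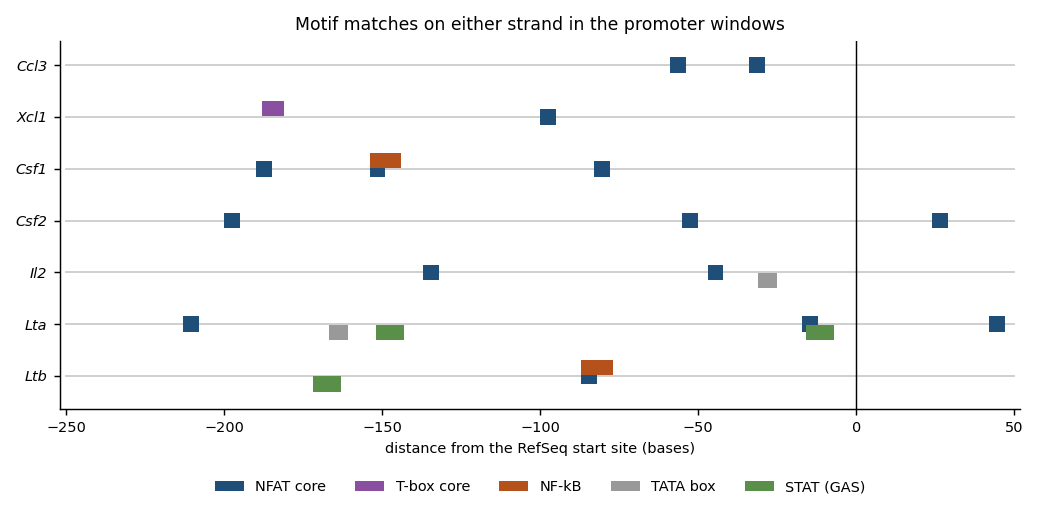
Motif matches in the 7 promoter windows; the horizontal axis is the distance from the RefSeq start site in bases, each row is a gene and each coloured block a match on either strand. NFAT cores occur in every row, the T-box core in the Xcl1 row only, and NF-kB matches in the Csf1 and Ltb rows.

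The genes differed widely in level, and Ltb stood first in each group. Levels between genes are compared here as FPKM, the deposited values scaled for transcript length. In WT naive cells Ltb averaged 464 ± 16.8 FPKM and Lta 18.5 ± 0.518 FPKM. The other 8 reached at most 1.001 FPKM in any WT naive library. Among them Ccl5 led at 0.774 ± 0.334 FPKM, followed by Il2 at 0.411 ± 0.118 FPKM, and each gene from Ccl5 down to Ccl4 overlapped the next in that order. Csf2 and Il10 had no read in the 3 WT naive libraries, where 3 counts over the group would be 0.0604 CPM. Ltb alone made up 95.8% of the summed FPKM of the 10 genes in WT naive cells.

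In effector cells the order was different. Ccl5 averaged 500.3 ± 42.7 FPKM in WT effector cells, where its libraries overlapped those of Ltb at 522 ± 22.1 FPKM. In KO effector cells Ccl5 averaged 386 ± 25.9 FPKM and no longer overlapped Ltb at 551 ± 35.5 FPKM. Xcl1 was the third in both, at 48.0 ± 8.997 FPKM in WT, clear of Lta at 24.03 ± 0.504 FPKM. In KO it was at 29.7 ± 3.72 FPKM and overlapped Lta at 25.9 ± 1.77 FPKM. Csf1 was the fifth in both groups, at 8.55 ± 1.14 FPKM in WT and 10.8 ± 1.85 FPKM in KO. The remaining 5, Ccl3, Ccl4, Csf2, Il2 and Il10, had means between 1.32 and 3.23 FPKM in the effector groups. Ltb and Ccl5 made up 46.9% and 44.9% of the summed FPKM in WT effector cells, and 54.3% and 38.0% in KO effector cells.

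**Figure D2:**
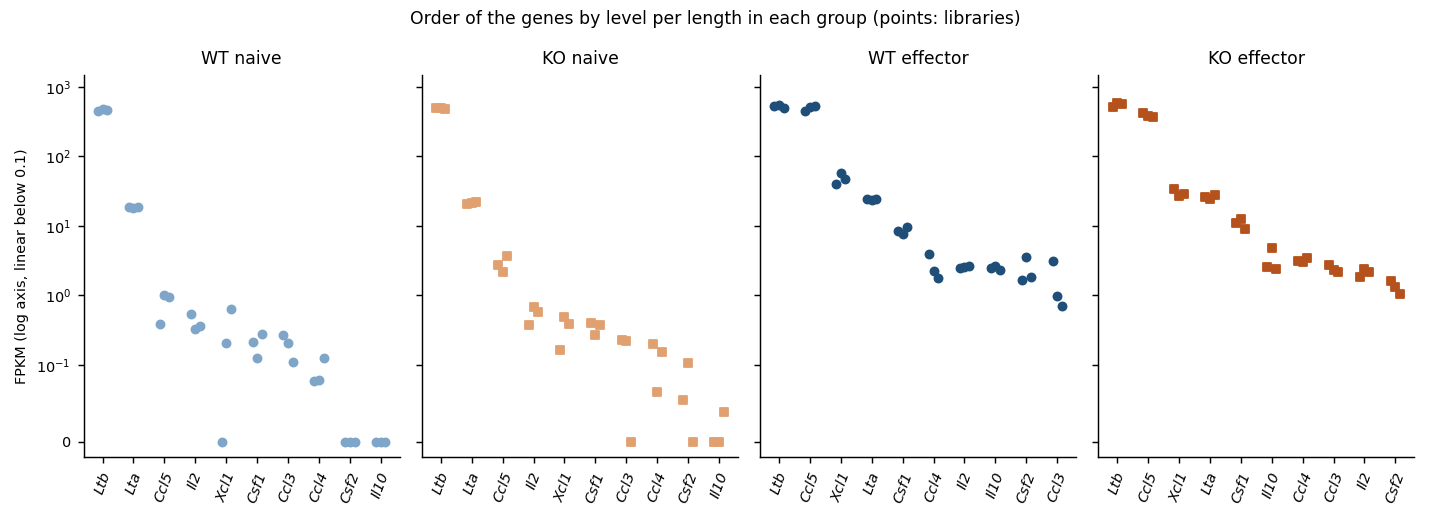
FPKM of the 10 genes in each group, ordered by group mean; points are libraries and the vertical axis is logarithmic, linear below 0.1. Ltb is first in all 4 panels, and Ccl5 moves from the third place in naive cells to the second in effector cells.

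Effector against naive cells was not the comparison the design text names, but it sets the scale for the KO effects. Across all genes tested, 56.2% were called between WT effector and WT naive cells (30.2% higher) and 58.4% between the KO groups (31.6% higher), by the quasi-likelihood test of edgeR at an adjusted p of 0.05. All 10 genes passed the filter on low counts, but Ccl3, Ccl4, Xcl1, Csf2 and Il10 passed only through their effector libraries, so a count over the 10 supports nothing here. The other 5, Ccl5, Csf1, Il2, Lta and Ltb, were each called higher in effector cells in both genotypes. Values by gene follow, first the chemokines, then the growth factors, the interleukins and the lymphotoxins. Folds and ratios between groups are of counts pooled over each group, per pooled TMM-scaled total. They can differ from ratios of the mean CPM.

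**Figure D3:**
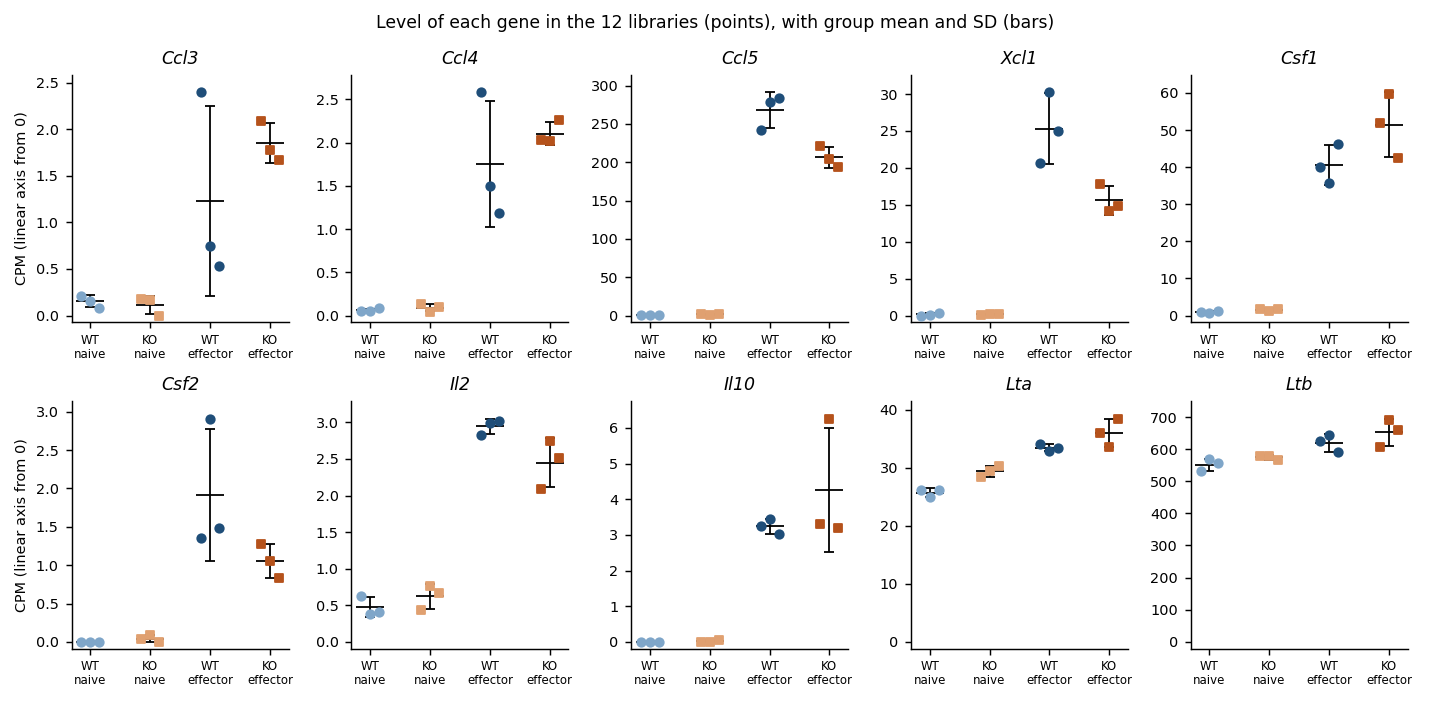
CPM of each gene in the 12 libraries (points) with the group mean and SD (bars), on linear axes that start at 0 and differ between panels. Naive points lie near 0 in the panels of Ccl4, Ccl5, Xcl1, Csf1, Csf2 and Il10. The KO libraries of Ccl5 and Xcl1 sit below the WT libraries in effector cells.

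Ccl5, which attracts T cells and macrophages, showed the widest range. Its level in WT naive libraries 1 to 3 was 0.210, 0.537 and 0.498 CPM, from 4, 10 and 6 counts. In WT effector libraries 4 to 6 it was 242, 278 and 284 CPM. The means were 268 ± 23.1 CPM in effector and 0.415 ± 0.178 CPM in naive cells. By pooled counts the effector level was 665-fold the naive level (log2 9.35 ± 0.149 SE, edgeR adjusted p = 3.1e-19). In KO cells it went from 1.47, 1.15 and 1.95 CPM in naive libraries 7 to 9 to 221, 205 and 193 CPM in effector libraries 10 to 12. That was a 139-fold difference by pooled counts (log2 7.10 ± 0.118, edgeR adjusted p = 4.9e-19).

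Loss of Rinl was accompanied by opposite differences of Ccl5 in the 2 cell types. In naive cells every KO library was above every WT library, at 1.52 ± 0.402 against 0.415 ± 0.178 CPM, and 3.72-fold by pooled counts (log2 1.88 ± 0.373, edgeR adjusted p = 0.0157). In effector cells every KO library was below every WT library, at 206 ± 13.7 against 268 ± 23.1 CPM, with a pooled ratio of 0.776 (log2 -0.38 ± 0.0673, edgeR adjusted p = 0.00424). The effector call was lost with limma on log2 FPKM, with adjusted p of 0.25, 0.56 and 0.38 under the 3 settings run, at log2 -0.37 in each. The difference between these effects was itself called, at log2 -2.25 ± 0.374 (edgeR adjusted p = 0.0187), where 0.145% of all genes were called (0.126% lower). The naive rise rests on 20 counts in WT and 99 in KO. It lost its call when library 1, 2, 7 or 9 was left out (edgeR adjusted p = 0.0857, 0.0580, 0.0607 and 0.0592), with log2 values between 1.52 and 2.20. The difference of effects lost its call without library 1, 2, 7 or 11 (edgeR adjusted p = 0.0586, 0.0607, 0.0838 and 0.0596). By mean CPM, the naive level was 0.155% of the effector level in WT and 0.737% in KO.

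Among the 10 genes, Ccl5 was the single call of the naive comparison, where 1.18% of all genes were called (0.679% higher). In naive cells markers of other cell types also differed between the genotypes. Plasma cell markers (6 genes) summed to 15.04 to 24.6 CPM in WT naive and 46.6 to 55.8 CPM in KO naive libraries, with 1 gene called higher, Ighg2c, and Tnfrsf17 at 0 in WT. B cell markers (8 genes) summed to 2.16 to 3.71 CPM in WT and 4.88 to 6.51 CPM in KO, with none called by edgeR or DESeq2, 3 at an unadjusted p under 0.05 and Blnk at 0 in WT. Myeloid markers (17 genes) summed to 8.36 to 21.8 and 21.3 to 36.4 CPM, with none called by edgeR, 4 at an unadjusted p under 0.05 and 1 called by DESeq2 (Mpeg1), and Clec9a and Siglech were at 0 in WT naive libraries. The list for NK cells, NKT cells and gamma-delta T cells (10 genes) summed to 29.3 to 32.9 CPM in WT and 28.3 to 32.8 CPM in KO naive libraries, with none called by edgeR or DESeq2, 5 at an unadjusted p under 0.05 and Zbtb16 at 0 in WT. Within it Klrb1c was at 0.0175 CPM in WT and 0.268 CPM in KO, and Klrk1 at 0.125 and 0.525 CPM. The more abundant Klrd1 was at 14.1 ± 1.54 CPM in WT and 10.9 ± 1.15 CPM in KO, with every KO library below every WT library, and Trdc was at 10.6 and 10.5 CPM. The part of these cells in the naive Ccl5 result was not tested.

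Xcl1 was nearly silent in naive cells, with 6 counts in WT and 12 in KO. WT naive libraries held 0, 0.107 and 0.332 CPM, and KO naive libraries 0.0864, 0.255 and 0.205 CPM, so the groups overlapped. WT effector libraries held 20.6, 30.2 and 25.0 CPM, 207-fold the naive level by pooled counts (95% counting interval 94.8 to 565). KO effector libraries held 17.8, 14.2 and 14.8 CPM, all below the lowest WT library, and 85.9-fold their naive level by pooled counts (48.9 to 167). Library 3 held most of the WT naive reads, and without it the fitted WT change went from log2 7.62 to 8.71. The KO effector mean was 15.6 ± 1.94 CPM against a WT mean of 25.3 ± 4.80 CPM, with a pooled ratio of 0.623 (log2 -0.69 ± 0.146, edgeR adjusted p = 0.0134). This call was lost without library 5, 6 or 11 (edgeR adjusted p = 0.0541, 0.0532 and 0.0892), with log2 values of -0.55, -0.70 and -0.62, and with limma on log2 FPKM (adjusted p = 0.0908, 0.62 and 0.18). The KO effect in naive cells was log2 0.56 ± 0.887 (edgeR adjusted p = 0.87), and the difference of effects, at -1.25 ± 0.909, was not called (edgeR adjusted p = 0.72).

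Ccl5 and Xcl1 were the 2 genes of the 10 called between KO and WT effector cells, both lower, where 3.16% of all genes were called (1.72% lower). Both are known products of NK cells and innate-like T cells as well as of effector T cells. The list for NK, NKT and gamma-delta cells summed to 240 to 249.4 CPM in WT effector libraries and to 203, 157 and 161 CPM in KO libraries 10, 11 and 12. Of the 10 markers, 4 were called lower in KO effector cells (Klrb1c, Klrk1, Klrd1 and Zbtb16) and none higher, and none was at 0 in either effector group. DESeq2 called Klrb1c, Klrd1 and Zbtb16 but not Klrk1. Klrb1c, Klrk1 and Zbtb16 were the most abundant of the list in WT effector cells. Ncr1 went from 0.453 to 0.758 CPM and Tyrobp from 1.07 to 1.75 CPM, neither called. Eomes (22.2 to 20.4 CPM), Trdc (6.67 to 5.56 CPM), Klre1 (3.80 to 2.36 CPM) and Sox13 (0.511 to 0.179 CPM, not tested) were lower without a call. Plasma cell markers summed to between 64.0 and 80.6 CPM in WT and between 108 and 128 CPM in KO effector libraries, with 1 called higher (Ighg2c). As a percentage of the WT effector mean, Ccl5 stood at 82.3, 76.4 and 72.2 in KO libraries 10 to 12, Xcl1 at 70.4, 56.0 and 58.6, and the marker sum at 82.6, 63.9 and 65.4. Per unit of the marker sum, Ccl5 was 1.09 ± 0.0719 in WT and 1.20 ± 0.109 in KO, and the groups overlapped. The same ratio for Xcl1 was 0.103 ± 0.0181 in WT and 0.0901 ± 0.00226 in KO, again with overlap. The most abundant genes of the marker sum were themselves called lower in KO, so division by it cannot decide on a cause. In bulk RNA, fewer cells of a type and less RNA per cell cannot be told apart. The part of these cells in the 2 results was not tested.

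**Figure D4:**
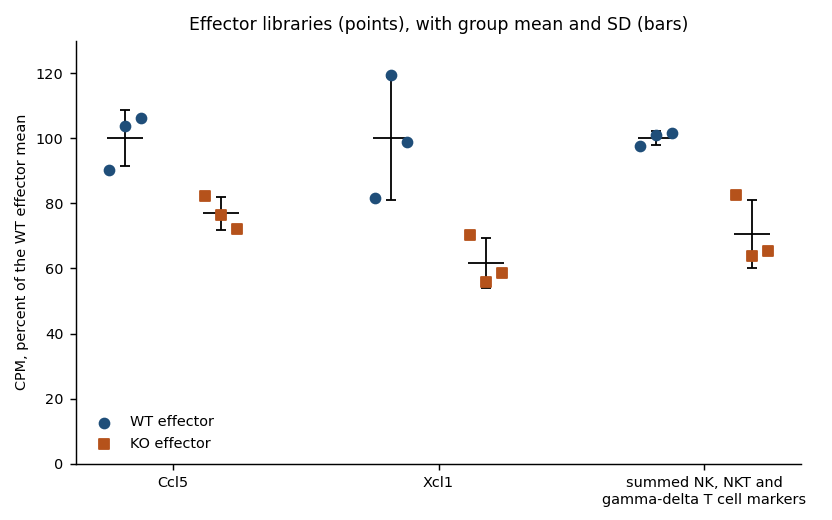
CPM in the 6 effector libraries as a percentage of the WT effector mean, for Ccl5, Xcl1 and the summed list for NK, NKT and gamma-delta cells; bars are group mean and SD. All 3 KO libraries lie below all 3 WT libraries in each of the 3 columns.

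Ccl3 and Ccl4, neighbouring genes for closely related chemokines, were scarce even in effector cells. Ccl3 had 0.210, 0.161 and 0.0829 CPM in WT naive and 0.173, 0.170 and 0 CPM in KO naive libraries. In WT effector libraries it had 2.40, 0.746 and 0.534 CPM, from 39, 10 and 9 counts. In KO effector libraries it had 2.09, 1.78 and 1.68 CPM, from 36, 37 and 20 counts. Library 4 was thus above all KO libraries and the other 2 WT libraries were below them. By pooled counts the effector level was 7.74-fold the naive level in WT (95% counting interval 3.68 to 18.8) and 15.4-fold in KO (7.50 to 36.7). Without library 4 the fitted WT change went from log2 2.90 to 1.93. KO against WT gave log2 0.58 ± 0.411 in effector cells (edgeR adjusted p = 0.54). Without library 4 it was 1.55 (edgeR adjusted p = 0.0302).

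Ccl4 had 0.0526, 0.0537 and 0.0829 CPM in WT naive libraries, 1 count in each. KO naive libraries had 0.130, 0.0425 and 0.102 CPM. WT effector libraries had 2.58, 1.49 and 1.19 CPM and KO effector libraries 2.03, 2.02 and 2.26 CPM. Library 4 was again the highest of all and the other WT effector libraries were below the KO ones. The pooled ratio of effector to naive cells was 29.2 in WT, with a 95% counting interval of 9.64 to 144, and 23.0 in KO (10.2 to 64.0). KO against WT was log2 0.25 ± 0.276 in effector cells (edgeR adjusted p = 0.72), and 0.65 without library 4 (edgeR adjusted p = 0.26). Ccl3 counts were 0.929 of Ccl4 counts in library 4 but 0.5 and 0.45 in libraries 5 and 6, and 1.03, 0.881 and 0.741 in KO libraries 10 to 12. Summed myeloid markers were 9.40 CPM in library 4 and 19.1 and 37.1 CPM in libraries 5 and 6. The cause of the high Ccl3 and Ccl4 in library 4 was not tested. In naive cells KO against WT was -0.39 ± 0.964 for Ccl3 and 0.53 ± 0.911 for Ccl4 on the log2 scale (edgeR adjusted p = 0.92 and 0.88).

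Csf1, the growth factor of macrophages, was the more abundant of the 2 colony stimulating factors. It had 0.999, 0.591 and 1.33 CPM in WT naive and 1.86, 1.28 and 1.74 CPM in KO naive libraries. KO library 8 overlapped the WT range, and the other 2 were above it. The KO mean of 1.62 ± 0.308 against 0.972 ± 0.369 CPM gave log2 0.80 ± 0.384, which was not called (edgeR adjusted p = 0.44). WT effector libraries had 39.9, 35.7 and 46.3 CPM, 44.3-fold the naive level by pooled counts (log2 5.45 ± 0.223, edgeR adjusted p = 1.4e-11). KO effector libraries had 52.02, 59.8 and 42.4 CPM, 32.8-fold their naive level by pooled counts (log2 4.997 ± 0.183, edgeR adjusted p = 3.1e-12). Library 12 fell within the WT effector range and libraries 10 and 11 above it. The KO difference in effector cells was log2 0.35 ± 0.121 and not called (edgeR adjusted p = 0.16), with a log2 value of 0.46 without library 12 (edgeR adjusted p = 0.0206).

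Csf2, the granulocyte and macrophage factor made by activated T helper cells, had no read in WT naive libraries and 3 counts in KO naive libraries, so no fold is given there. WT effector libraries had 1.35, 2.91 and 1.48 CPM, at least 30.6-fold higher than naive cells when 3 counts over the WT naive group are taken as the floor. KO effector libraries had 1.28, 1.06 and 0.838 CPM, 23.9 times the naive level by pooled counts (95% counting interval 7.74 to 119). All 3 KO effector libraries were below all 3 WT libraries, but library 10 was close to library 4. The KO difference of log2 -0.80 ± 0.342 was not called (edgeR adjusted p = 0.24), and it was -0.40 without library 5, the highest of the WT libraries.

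Il2 was detected in all 12 libraries. WT naive libraries had 0.631, 0.376 and 0.415 CPM, and KO naive libraries 0.432, 0.765 and 0.666 CPM, which overlapped (log2 0.36 ± 0.353, edgeR adjusted p = 0.77). WT effector libraries had 2.83, 2.98 and 3.02 CPM, 6.09-fold the naive level by pooled counts (log2 2.59 ± 0.285, edgeR adjusted p = 3.4e-08). KO effector libraries had 2.09, 2.74 and 2.51 CPM, 3.98-fold their naive level by pooled counts (log2 1.97 ± 0.259, edgeR adjusted p = 5.4e-07). The 3 KO effector libraries were all below the WT ones, at 2.45 ± 0.333 against 2.95 ± 0.105 CPM, a difference that was not called (log2 -0.26 ± 0.215, edgeR adjusted p = 0.60). By mean CPM, the naive level was 16.1% of the effector level in WT and 25.4% in KO, above that of every other gene here but the lymphotoxins.

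Il10 was confined to effector libraries but for 1 count in KO naive library 9. WT effector libraries had 3.26, 3.43 and 3.02 CPM, at least 53.4-fold higher than WT naive cells by the floor of 3 counts. KO effector libraries had 3.31, 6.26 and 3.18 CPM. Library 11 was 1.89-fold above the next KO library, and the other 2 lay within the WT range. The KO difference in effector cells was log2 0.43 ± 0.247 (edgeR adjusted p = 0.42), and 0.01 without library 11.

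The lymphotoxin genes were already abundant in naive cells and differed little between any groups. Lta had 26.1, 24.9 and 26.1 CPM in WT naive and 34.1, 32.8 and 33.4 CPM in WT effector libraries, a 1.304-fold difference without overlap (log2 0.38 ± 0.0670, edgeR adjusted p = 3.3e-05). KO naive libraries had 28.3, 29.5 and 30.3 CPM, all above the WT naive libraries. The naive KO difference of log2 0.19 ± 0.0656 had an unadjusted p of 0.00781 but was not called (edgeR adjusted p = 0.19). KO effector libraries had 35.9, 33.5 and 38.4 CPM and overlapped the WT ones (log2 0.10 ± 0.0647, edgeR adjusted p = 0.51).

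Ltb had 530, 568 and 555 CPM in WT naive libraries and 580, 579 and 565 CPM in KO naive libraries. WT effector libraries had 626, 643 and 590 CPM, 1.12-fold the naive level by pooled counts (log2 0.17 ± 0.0491, edgeR adjusted p = 0.00519). KO effector libraries had 607, 691 and 659 CPM, 1.14-fold their naive level by pooled counts (log2 0.18 ± 0.0489, edgeR adjusted p = 0.00255). No library of one cell type reached into the range of the other within a genotype, while the genotypes overlapped in both cell types. KO against WT was log2 0.06 ± 0.0489 in naive and 0.07 ± 0.0490 in effector cells (edgeR adjusted p = 0.70 and 0.50). Per library, Lta was between 0.0439 and 0.0591 of Ltb in CPM. Tnf, the third cytokine gene of this locus, was at 24.7 and 26.7 CPM in WT and KO naive cells and at 62.1 and 59.3 CPM in WT and KO effector cells.

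Across the 10 genes, 2 had KO and WT libraries that did not overlap in naive cells (Ccl5 and Lta, both higher), where 20.5% of all genes did not overlap (10.7% higher). In effector cells 4 did not overlap (Ccl5, Xcl1, Csf2 and Il2, all lower in KO), where the share over all genes was 17.9% (8.73% lower). The median KO effect was log2 0.45 over the 8 genes with more than 3 counts in a naive group, and 0.09 over all 10 in effector cells, against 0.00 over all genes tested in both. The 8 include genes with few WT and KO naive counts: Ccl3 (8 and 8), Ccl4 (3 and 6) and Xcl1 (6 and 12). The better counted Ccl5, Csf1, Il2, Lta and Ltb had naive effects of log2 1.88, 0.80, 0.36, 0.19 and 0.06, of which only that of Ccl5 was called. Whether the genes rise as a group in naive cells was not tested. In naive cells Lta, and in effector cells Csf1 and Csf2, passed an unadjusted p of 0.05 without passing the adjusted one. The naive and effector effects of KO rest on different libraries. Whether naive and effector libraries share mice is not stated, and no pairing was fitted.

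**Figure D5:**
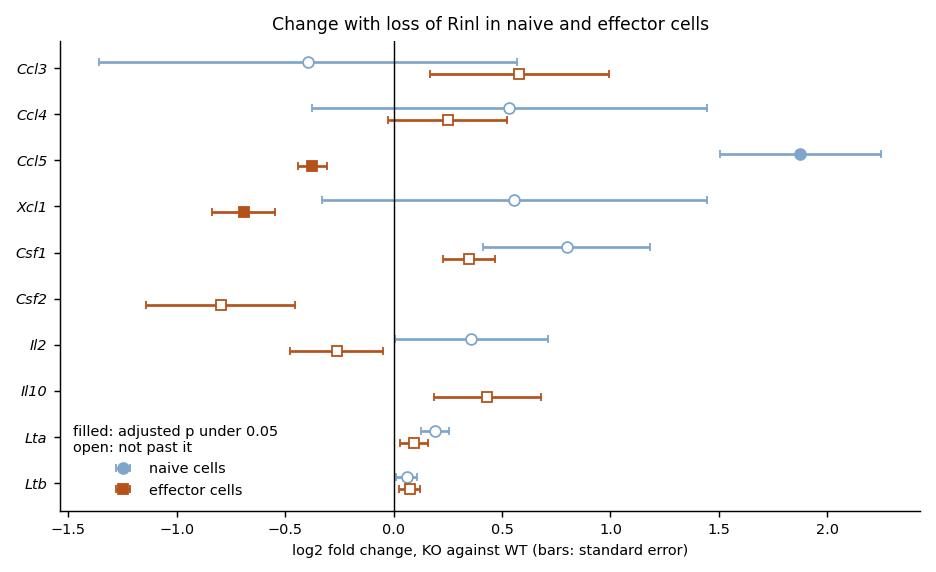
Log2 fold change of KO against WT with its standard error in naive cells (circles) and effector cells (squares); filled symbols passed an adjusted p of 0.05. The 2 filled Ccl5 symbols lie on opposite sides of 0, and Csf2 and Il10 have no naive symbol because they had at most 3 counts in each naive group.

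The receptors of these signals were a list of 17 genes, of which 15 were tested. The counts of this and the next lists stand against shares of all genes tested: in naive cells 0.679% were higher in KO and 0.497% lower, in effector cells 1.45% higher and 1.72% lower, and from naive to effector cells in WT 30.2% higher and 25.9% lower. Some list genes, among them Ifng, Il4, Il21, Ccl1 and Cxcl10, passed the filter only through effector libraries. A count from naive to effector cells over a list with such genes is partly set by the filter and supports nothing here. Of the receptors, 2 were higher in KO naive cells and none lower, with a list median of log2 0.26. They were Il2rb and Csf2rb. Il2rb, a chain of the IL-2 receptor, was at 87.7 ± 7.10 in WT and 107 ± 4.56 CPM in KO (log2 0.30 ± 0.0600, edgeR adjusted p = 0.0115). Csf2rb, the shared chain of the GM-CSF receptor, was at 0.0810 ± 0.0275 and 0.648 ± 0.0751 CPM (edgeR adjusted p = 0.0133), from 4 counts in WT and 43 in KO. DESeq2 called Il2rb and Tnfrsf1b in naive cells but not Csf2rb. In effector cells 1 receptor was higher and 1 lower, with a list median of log2 0.11. The higher one was Tnfrsf1b, a receptor of TNF and secreted lymphotoxin alpha, at 431 ± 24.4 CPM in WT and 537 ± 70.3 CPM in KO (log2 0.32 ± 0.0688, edgeR adjusted p = 0.0173). Il2rb was at 1185 ± 40.9 in WT and 1076 ± 72.4 CPM in KO effector cells, without a call. For the difference of effects edgeR called 1 receptor, lower, and DESeq2 called Il2rb. From naive to effector cells in WT Il2rb and Tnfrsf1b rose by log2 3.76 and 2.70.

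Of 33 transcription factors of cytokine genes, 3 were called higher in KO naive cells and none lower, with a list median of log2 0.02. They were the NF-kB genes Nfkb2 (log2 0.32 ± 0.0599) and Relb (0.30 ± 0.0713) and the AP-1 gene Fos (0.80 ± 0.155), with edgeR adjusted p of 0.00633, 0.0414 and 0.00982. In effector cells 5 were higher and 1 was lower, with a list median of 0.08. Tbx21, the gene of T-bet, fell from 93.4 ± 13.9 to 61.8 ± 3.35 CPM (log2 -0.59 ± 0.0790, edgeR adjusted p = 1.9e-04). Nfkb2 rose by log2 0.25 ± 0.0567 and Nfatc1, the NFAT gene induced by receptor signals, by 0.23 ± 0.0532 (edgeR adjusted p = 0.0133 and 0.0150). From naive to effector cells in WT 26 rose and 2 fell, led by Tbx21, Bhlhe40 and Zeb2 with log2 changes of 8.06, 6.76 and 6.59. Tbx21 passed the filter only through effector libraries, so this count too is partly set by the filter.

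The list of 48 other cytokines, which includes membrane ligands of the TNF family, had 24 genes tested. None was called in naive cells by edgeR or DESeq2 (4 at an unadjusted p under 0.05, list median log2 0.02), and 4 rose and 3 fell in KO effector cells (list median 0.05). Il1rn, the receptor antagonist of IL-1, was at 1.66 ± 0.475 in WT and 4.19 ± 0.957 CPM in KO effector cells (log2 1.34 ± 0.255, edgeR adjusted p = 0.00520). Tnfsf11, the ligand RANKL, went from 49.1 ± 1.32 to 62.0 ± 4.89 CPM (log2 0.33 ± 0.0672, edgeR adjusted p = 0.00589). Cd40lg, through which T cells help B cells, fell from 89.9 ± 3.41 to 74.0 ± 3.20 CPM (log2 -0.28 ± 0.0546, edgeR adjusted p = 0.00430). From naive to effector cells in WT 18 of the 24 rose and 2 fell, a count partly set by the filter. Il4 and Il21, products of type 2 and follicular helper cells, were at 0 and 0.0631 CPM in WT naive and at 5.99 ± 0.680 and 8.26 ± 3.92 CPM in WT effector cells, and Tnfsf14 rose by log2 7.45.

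Of 32 other chemokines 6 passed the filter. None was called in naive cells by edgeR or DESeq2 (3 at an unadjusted p under 0.05), and the list median was log2 2.40 over the 5 genes with more than 3 counts in a naive group. That median rests on few reads, with WT and KO naive counts of 2 and 34 for Ccl6, 4 and 34 for Ccl9 and 2 and 16 for Cxcl10. The better counted genes were Ccl25, with 68 and 126, and Ccl27a, with 92 and 88. Mean CPM of Ccl27a was lower in KO (1.35 against 1.91), so no rise of the list is shown. In effector cells 1 was called and the list median was log2 0.05, and the median difference of effects over those 5 genes was -1.70, with none called by edgeR or DESeq2 (2 at an unadjusted p under 0.05). That was Cxcl10, an interferon-induced attractant of T cells, at 7.57 ± 0.738 in WT and 12.2 ± 2.49 CPM in KO (log2 0.69 ± 0.143, edgeR adjusted p = 0.00696), against the direction of Ccl5 and Xcl1. From naive to effector cells 4 of the 6 were called in WT and 2 in KO, all higher, with list medians of log2 2.78 and 0.39, where 30.2% and 31.6% of all genes were called higher. These counts are partly set by the filter, and the medians use the same few naive reads.

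Of 14 genes for decay of cytokine mRNA none was called by edgeR in naive or effector cells (1 and 3 at an unadjusted p under 0.05, list medians log2 0.00 and 0.08). DESeq2 called none in naive cells and Zfp36l1 in effector cells. From naive to effector cells in WT 3 rose and 5 fell, among them Zc3h12a and Zfp36l1 up by log2 0.61 and 0.52 and Zfp36 at -0.42. Of 16 genes for the release of cytokines and granules none was called in naive cells by edgeR or DESeq2 (3 at an unadjusted p under 0.05) and Stx6, a syntaxin, was called in effector cells (log2 0.22 ± 0.0522, edgeR adjusted p = 0.0186), with list medians of 0.01 and 0.02. From naive to effector cells in WT 10 of the 16 rose and 1 fell, led by Stx11, Srgn and Rab37 with log2 changes of 4.72, 1.51 and 0.85.

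For the 8 genes with a mean of at least 1 CPM, the 3 genes with the most similar profile over the 12 libraries were found among 13922 others, by the root mean square difference of centred log2 CPM. Ccl5 was closest to S100a6, Klrb1c and Myo1f, at differences of 0.457, 0.460 and 0.475. All 3 had, like Ccl5, more reads in KO naive than in WT naive cells, at 1.02 against 0.269 CPM for S100a6, 0.268 against 0.0175 CPM for Klrb1c and 1.97 against 0.789 CPM for Myo1f. They were picked for likeness over these same libraries, so the shared direction is part of the choice and no separate support. The Klrb1c values rest on 18 counts in KO and 1 in WT. Xcl1 was closest to Cd93, Trgv2 and Il1rl1 (0.415, 0.424 and 0.441). Csf1 was closest to Coro2b, Itgae and Gpr55 (0.220, 0.221 and 0.255), and Ccl4 to Mdfic, Trib1 and Tnfrsf4 (0.246, 0.262 and 0.266). Il2 was closest to Zfp821, Rab19 and Vill (0.179, 0.188 and 0.212). Il10 was closest to Rgs16, Ky and Pdcd1 (0.154, 0.200 and 0.213), of which Pdcd1 encodes the inhibitory receptor PD-1. Lta was closest to Utp11, Zfp609 and Hk1 (0.0584, 0.0589 and 0.0622) and Ltb to Hgs, Eif5a and Sla2 (0.0259, 0.0288 and 0.0310). The smaller values of the last 2 go with the small range of their profiles.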

How the data were processed

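Per the labels' protocols, a stranded mRNA kit was used. The authors deposited raw counts per gene as whole numbers, per the file headers, and FPKM for the same libraries, per the file headers. The submitters' processing notes name Picard, STAR and DESeq2 1.30.0 with mm10 and GRCm38. The counter and its strand setting are not stated. In 11921 genes with at least 20 counts in each library, FPKM equalled counts over one length per gene and one factor per library (tolerance 0.02), so the tables are one measurement. Replicates differed beyond sampling noise (chi-square 2.25 to 5.89 per gene). Columns carry group and number but no replicate of the titles.

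The counts went into edgeR 4.0.16 (R 4.3.3) with filterByExpr by group (15905 genes kept), TMM, one robust quasi-likelihood model of all 12 libraries, and Benjamini-Hochberg adjustment over all tested genes at 0.05. "Called" means past this. Standard errors come from the fold change and F; bounds and counting intervals (95%, exact) cover counting error only, and a floor is 3 counts over a group. The biological coefficient of variation was 5.21%. The model was checked on simulated counts. Alternatives were DESeq2 size factors in edgeR, DESeq2 1.42.0, no filter, only the groups compared, limma 3.58.1 on log2(FPKM + 1) or + 0.1, and each library left out.

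The 10 genes, the lists and the motifs were chosen with earlier results of these data known. Named besides the 10 were Rinl, up to 3 called genes per list by p for KO against WT and the 3 largest changes of effector against naive in WT with at least 5 CPM, and the 3 nearest profiles of each gene; called markers were named after their values were seen. Some genes of these lists are not reported here.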

Additional observations from a re-analysis of the deposited data

Results flagged for a closer look

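Ccl5 had different KO effects in naive and effector cells. The difference between the effects, effector minus naive, was log2 -2.25 by a contrast of all 4 groups (edgeR adjusted p = 0.0187). This call was lost in 6 of 18 alternative settings, and the naive side rests on 20 counts in WT and 99 in KO. KO libraries were higher in 3 of 3 naive and lower in 3 of 3 effector libraries.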

How the results depend on the processing

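No paired analysis was possible because the columns carry library numbers 1 to 12 and not the replicate numbers of the titles. The number of the 10 genes called for KO against WT in naive cells (1) went to 0 with limma on log2(FPKM + 1) without a filter and was 0 to 1 with a library left out. In effector cells (2) it was 0 with limma on log2(FPKM + 1), on log2(FPKM + 0.1) and without a filter, and 1 to 3 with a library left out. For the difference of effects (1) it was 0 with limma on log2(FPKM + 0.1) and without a filter, and 0 to 1 with a library left out. Under limma, Ccl5 in effector cells stayed at log2 -0.37 (adjusted p = 0.25, 0.56 and 0.38 in the order above) and Xcl1 at -0.67, -0.68 and -0.67 (adjusted p = 0.0908, 0.62 and 0.18). Csf1 in effector cells was called without a filter (log2 0.35, edgeR adjusted p = 3.0e-04). Signs turned only for values that were not called: the difference of effects for Ccl4 (0.18, 0.0748 and 0.18 with limma, 0.12 without library 4, 0.05 without library 7, lowest -0.64 with a library left out), for Csf1 (0.15 with limma on log2(FPKM + 1), with and without a filter) and for Ltb (-0.0297 to 0.0656 with a library left out, below 0 without library 2, 3, 6, 9 or 11), and the naive KO effect of Xcl1 (-0.10 without library 1, to 1.66) and Ccl3 (-0.74, to 0.10 without library 9). The cause was not tested. Over all genes, 187 naive calls became 501 without a filter, 528 with only the groups compared, 40, 57 and 13 with limma, and 66 to 135 with a library left out. The 503 effector calls became 959, 230, 262, 139, 97 and 194 to 662, and the 23 calls of the difference 277 without a filter, 61 with DESeq2, 13, 8 and 10 with limma, and 10 to 85. At this depth 1 CPM was 11.9 to 23.5 counts per library, which limits Ccl3, Ccl4, Csf2, Il2 and Il10 in effector cells and all but Lta and Ltb in naive cells.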
